A study of Mus musculus with 96 samples.

Results

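Skeletal muscle genes were examined in mouse fat tissue, to gauge how much muscle each library carried and of which fibre type. The group held 36 genes of 29072 gene symbols in the table. They were chosen by symbol, as parts of the contractile unit of skeletal muscle (the sarcomere), its calcium store, its energy supply and its protein breakdown, and each symbol was read from its most abundant transcript, by the mean of the 96 libraries. The libraries came from male C57BL/6J mice, wild-type or Ucp1-KO (lacking uncoupling protein 1, the mitochondrial proton carrier of brown fat). For 4 weeks they were housed at 20 °C or 30 °C with control chow, in which fat gave 13% of the energy, or at 30 °C with a high fat chow, in which it gave 48%. The brown fat pad between the shoulder blades (interscapular, iBAT) and the white fat pad of the groin (inguinal, iWAT) were taken from groups of 8 animals, which gave 12 groups of 8 libraries. The labels give no age, and do not say which iBAT and iWAT libraries share an animal. Libraries are named below by their number in the labels, 1 to 96.

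Skeletal muscle shortens when myosin heads of the thick filament pull on actin of the thin filament, under the control of troponin and tropomyosin, which respond to calcium released from the sarcoplasmic reticulum. Fast fibres and slow fibres use different genes for the same parts: Myh4, Myh1 and Myh2 encode fast myosin heavy chains and Myh7 the slow one, and the troponins and myosin light chains come in fast and slow forms too. Adipocytes are not known to build sarcomeres, while both depots lie next to skeletal muscle.

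The libraries held 8.90 to 19.2 M counted reads each (median 11.8 M). Values are RPKM, read counts scaled to transcript length and library size, so that levels of different genes can be set side by side. Ucp1 was listed at 2428 to 9281 RPKM in wild-type iBAT and at 546 to 1145 RPKM in Ucp1-KO iBAT, with no overlap. In iWAT at 20 °C it was listed at 23.9 to 281 RPKM in wild-type and 196 to 597 RPKM in Ucp1-KO libraries, and which part of the gene the deletion removes is not given in the sources used here. Defining genes of heart muscle were low: the summed level of 9 heart genes was 2.78 to 24.1 RPKM, and the highest, Myl4, averaged 5.95 RPKM. The summed level of 8 smooth muscle genes, led by Acta2, Tagln and Myh11, ran from 59.7 to 492 RPKM.

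The members' level differed widely between libraries of the same group. Their summed level ran from 72.7 RPKM (library 46) to 18725 RPKM (library 32) in iBAT, with a median of 1390 RPKM, and from 66.4 RPKM (library 52) to 16855 RPKM (library 67) in iWAT, with a median of 539 RPKM. As a share of all gene RPKM this was 0.017% to 4.03% in iBAT and 0.015% to 4.29% in iWAT. The ranges of the 6 groups of a tissue all overlapped. In bulk tissue, fewer muscle fibres and less muscle RNA per fibre cannot be told apart.

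Acta1, the actin of the skeletal muscle thin filament, was the most abundant member by its median in both tissues. In iBAT at 20 °C its lowest, median and highest values were 22.7, 211 and 1049 RPKM in wild-type libraries and 68.2, 225 and 786 RPKM in Ucp1-KO libraries. On control diet at 30 °C they were 18.2, 94.1 and 1274 RPKM in wild-type and 16.4, 251 and 2760 RPKM in Ucp1-KO libraries. On high fat they were 1.27, 117 and 199 RPKM in wild-type and 2.14, 271 and 2322 RPKM in Ucp1-KO libraries. The groups overlapped in all these settings, and within iBAT the highest library exceeded the lowest 2167-fold. In iWAT at 20 °C the same 3 values were 2.67, 55.3 and 424 RPKM in wild-type and 7.37, 53.8 and 1077 RPKM in Ucp1-KO libraries. On control diet at 30 °C they were 7.97, 284 and 2885 RPKM in wild-type and 8.69, 245 and 1771 RPKM in Ucp1-KO libraries. On high fat they were 30.3, 71.7 and 174 RPKM in wild-type and 7.68, 58.4 and 183 RPKM in Ucp1-KO libraries. The highest high fat library lay below the highest library of every control diet group of iWAT. The medians did not follow that order: on high fat they lay below those of control diet at 30 °C, and slightly above those at 20 °C.

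**Figure D1:**
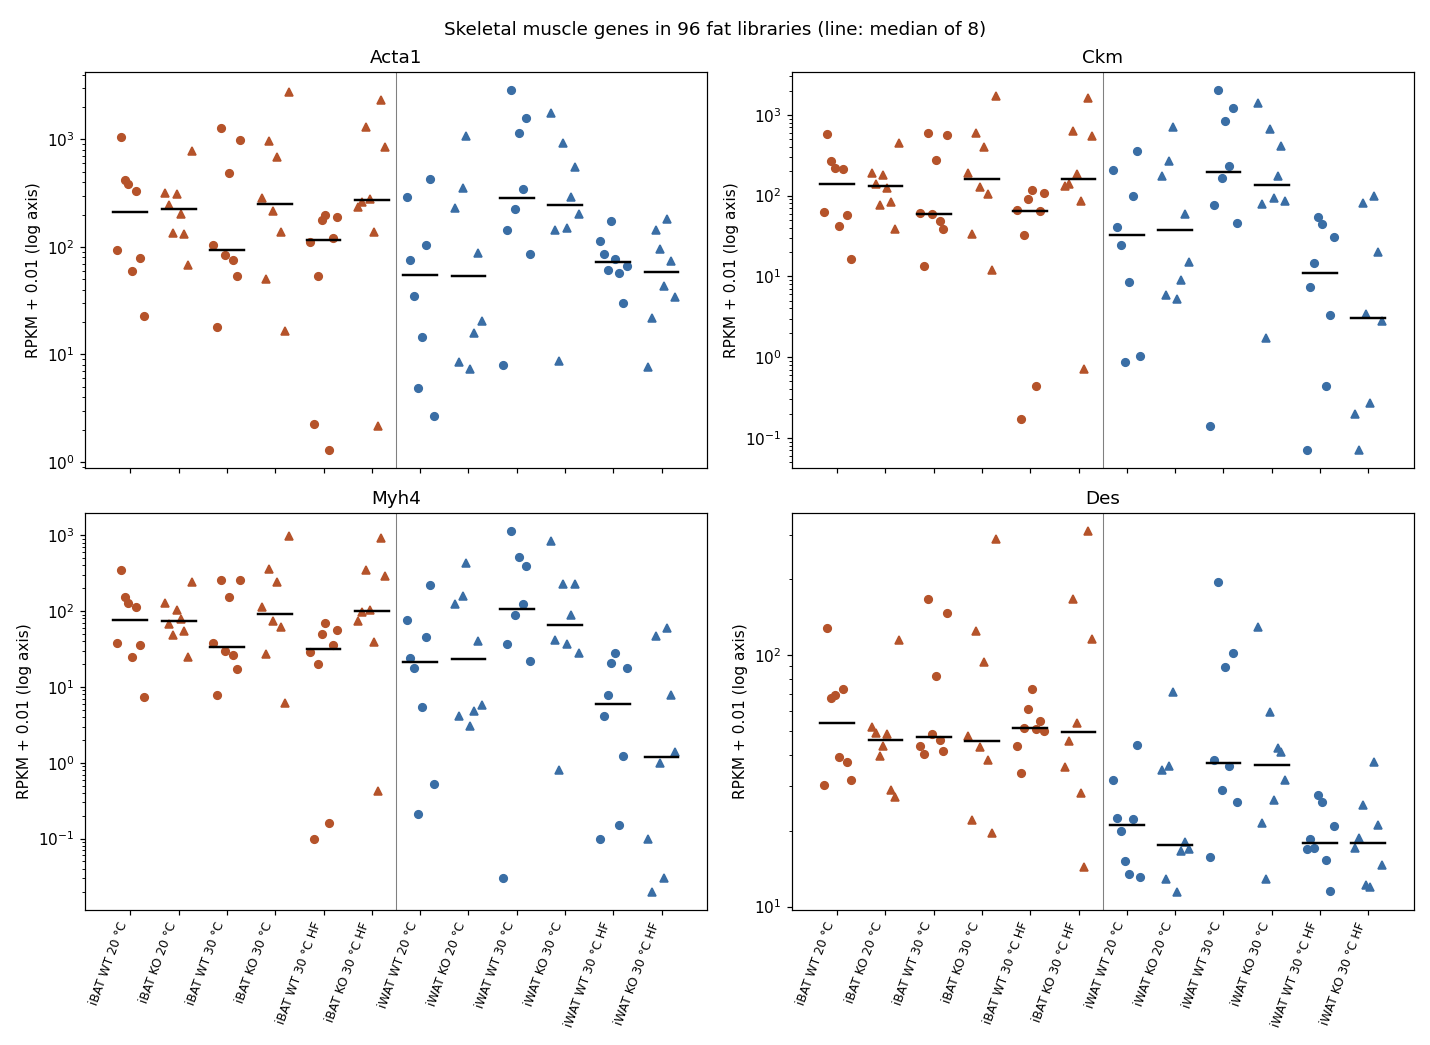
Levels of Acta1, Ckm, Myh4 and Des (RPKM + 0.01, log axis) in each of 8 libraries of the 12 groups, circles wild-type and triangles Ucp1-KO, with iBAT on the left and iWAT on the right of the grey line and the group median as a bar. Acta1, Ckm and Myh4 spread over 2 or more orders of magnitude in most groups, while the lowest Des value was 11.5 RPKM.

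Ckm, the muscle creatine kinase that rebuilds ATP from phosphocreatine, tracked Acta1 closely in iBAT. Ckm was 0.16 RPKM in library 34, 0.43 RPKM in library 38 and 0.70 RPKM in library 46, the libraries of iBAT with the least muscle RNA, and 11.8 RPKM or more in the other 45. Library 32 held 1702 RPKM. Ckm per Acta1 had a median of 0.593 in iBAT, and it lay between 0.463 and 0.759 in every iBAT library but those 3. In libraries 34, 38 and 46 other sarcomere genes were also near 0: Myh4 was 0.09, 0.15 and 0.42 RPKM and Tnni2, the fast troponin inhibitor subunit, was 0.50, 0.00 and 0.37 RPKM. The absence therefore covered several parts of the sarcomere in the same libraries.

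Over all members the order of libraries was largely shared. Of the other 35 members, 35 correlated with Acta1 across the 48 iBAT libraries, from r = 0.708 and rho = 0.820 for Sln to r = 0.997 and rho = 0.996 for Tnni2. The two-sided permutation p was 1e-05 for each of the 35, the smallest that 100000 permutations can give, and 1e-05 after Benjamini-Hochberg adjustment over the 35. Without the 2 libraries farthest from the Acta1 median, r was 0.746 for Sln and 0.996 for Tnni2. In iWAT 29 of 35 did so at an adjusted p below 0.05, with Tpm2, a tropomyosin, at r = 0.933 and rho = 0.948 (permutation p = 1e-05, adjusted 1.5e-05) and Casq1, the calcium-binding protein of the store, at r = 0.934 and rho = 0.938 (permutation p = 1e-05, adjusted 1.5e-05). Without the 2 farthest libraries these r were 0.931 and 0.927. The 6 that did not were the slow members Myh7, Myl2, Myl3, Tnnc1 and Tnnt1 and the calcium pump regulator Sln, with r from -0.049 for Myl3 to 0.243 for Myh7, in a tissue where most of those values were below 1 RPKM. Tnni1 passed by r = 0.319 (permutation p = 0.0259, adjusted 0.031) but not by rho = 0.289 (adjusted 0.056). With group means subtracted the counts were 35 and 28, so the shared order was present within groups.

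**Figure D2:**
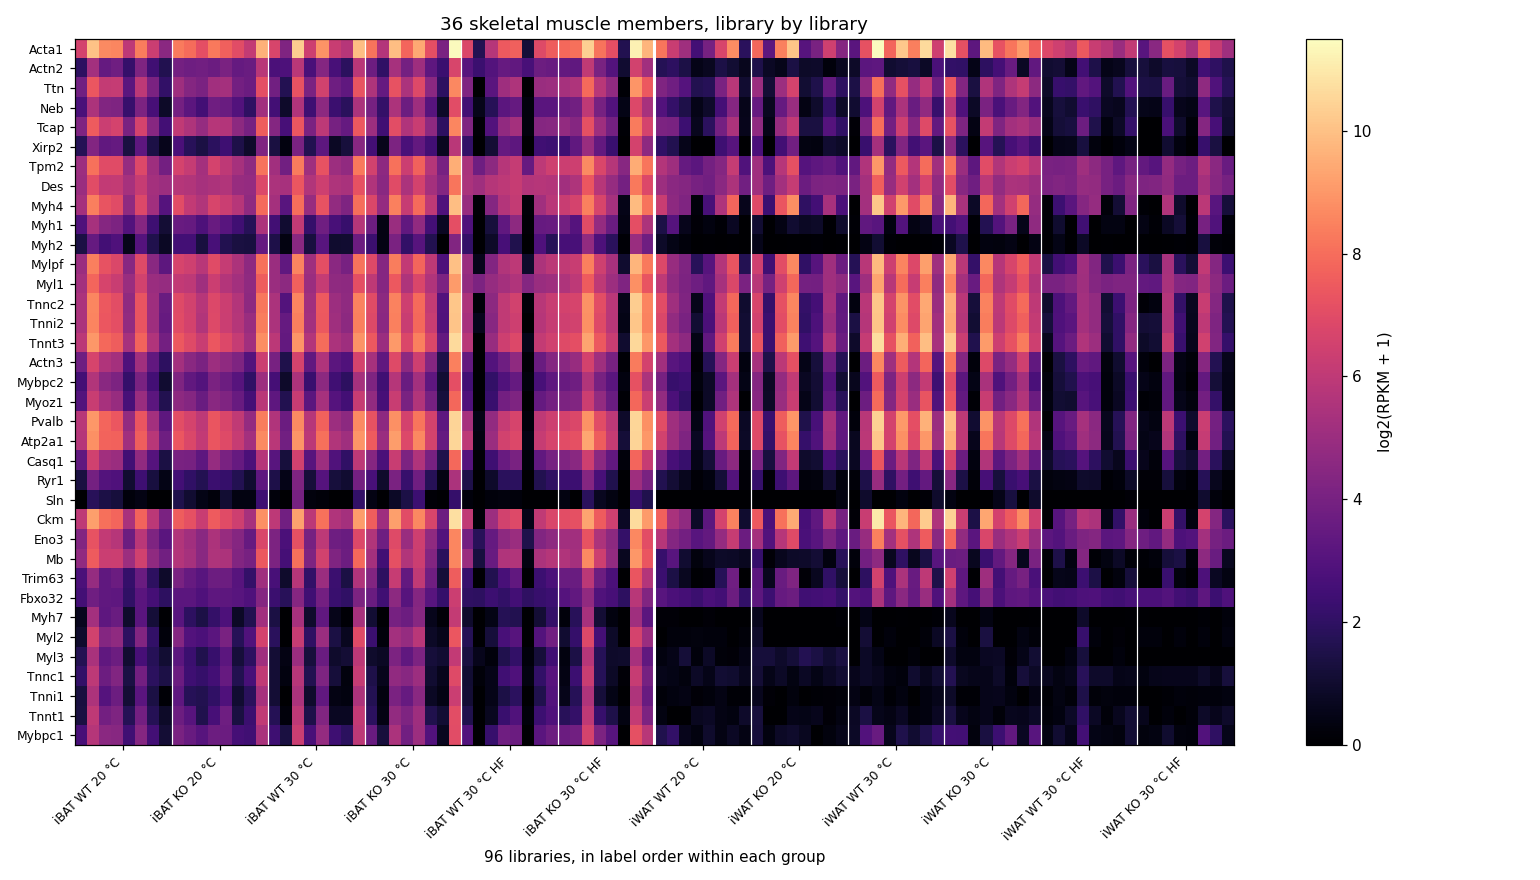
Level of each of 36 members (rows, log2(RPKM + 1) as colour) in each of 96 libraries (columns, in label order within the 12 groups; wider line between iBAT and iWAT). Whole columns are bright or dark together, and the slow members in the bottom 7 rows are dark in iWAT.

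The 250 bases before the annotated start of 3 members are shown because their levels parted in iWAT, as described further on: some libraries held Acta1 with Ckm near 0, and Myl3 did not correlate with Acta1. They are taken from RefSeq on GRCm38.p6, 5′ to 3′ on the gene's strand, with capitals marking E-boxes (CANNTG, the site of MyoD-type factors) and CArG boxes (the site of serum response factor), both searched on both strands with no overlap between kinds in these windows. Acta1 lies at chr8:123894776-123895025 (minus strand), Ckm at chr7:19410844-19411093 (plus strand) and Myl3 at chr9:110763428-110763677 (plus strand).
Acta1: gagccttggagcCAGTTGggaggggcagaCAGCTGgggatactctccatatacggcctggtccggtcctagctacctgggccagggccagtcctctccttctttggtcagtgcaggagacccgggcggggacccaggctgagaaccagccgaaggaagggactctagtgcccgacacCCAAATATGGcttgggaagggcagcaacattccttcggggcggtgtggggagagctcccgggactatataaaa
Ckm: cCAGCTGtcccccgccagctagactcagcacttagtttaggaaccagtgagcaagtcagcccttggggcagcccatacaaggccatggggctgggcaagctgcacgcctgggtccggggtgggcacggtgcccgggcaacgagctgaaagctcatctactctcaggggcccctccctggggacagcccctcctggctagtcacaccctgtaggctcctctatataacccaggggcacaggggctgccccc
Myl3: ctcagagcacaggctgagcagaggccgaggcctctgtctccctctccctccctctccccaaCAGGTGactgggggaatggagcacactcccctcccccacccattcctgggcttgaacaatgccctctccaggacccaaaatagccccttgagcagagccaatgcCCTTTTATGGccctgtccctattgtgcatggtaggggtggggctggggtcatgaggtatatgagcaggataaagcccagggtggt
The windows hold 2 E-boxes and 1 CArG box in Acta1, 1 E-box and 0 CArG boxes in Ckm, and 1 E-box and 1 CArG box in Myl3. Of the 36 members, 28 had a promoter in the table. An E-box was in 25 of these 28 (89.3%), against 69.3% of all 27025 genes with a promoter of that length. A CArG box was in 3 of 28 (10.7%), Acta1, Myh4 and Myl3, against 1.62% of all genes. The MEF2 motif, the site of myocyte enhancer factor 2, was in 5 of 28 (17.9%), against 3.42%. A match of letters describes the window and says nothing of binding.

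The 14 fast members summed to a median of 712 RPKM in iBAT and 278 RPKM in iWAT, of member sums with medians of 1390 and 539 RPKM. On high fat in iWAT they were the smaller part, with medians of 78.8 of 223 RPKM in wild-type and 39.2 of 157 RPKM in Ucp1-KO libraries. In iBAT the medians over 48 libraries were 64.7 RPKM for Myh4, 61.7 RPKM for Mylpf (the fast regulatory light chain), 75.8 RPKM for Tnni2, 110 RPKM for Tnnt3 and 78.9 RPKM for Tnnc2 (the fast troponins), 106 RPKM for Atp2a1 (the fast calcium pump) and 94.8 RPKM for Pvalb (a calcium buffer of fast fibres). In iWAT the same genes had medians of 23.1, 31.6, 29.5, 39.2, 32.3, 33.3 and 32.6 RPKM, in that order. The structural giants Ttn and Neb, which set the length of the filaments, had medians of 32.5 and 8.25 RPKM in iBAT and 9.96 and 3.38 RPKM in iWAT. Each of these genes rose and fell with Acta1 from library to library.

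Several members kept a level in libraries with almost no Ckm. Des, the intermediate filament of all muscle types, was 33.8, 50.8 and 14.3 RPKM in libraries 34, 38 and 46, and never below 11.5 RPKM in any library. Myl1, a fast alkali light chain, was 16.7, 19.7 and 18.1 RPKM there, and at least 7.62 RPKM in all 96. The lowest values over all libraries were 5.96 RPKM for Tpm2, 1.94 RPKM for Eno3 (the muscle enolase) and 2.50 RPKM for Fbxo32 (a ubiquitin ligase of muscle wasting). These genes spanned 14-fold to 207-fold between the lowest and highest library of a tissue, against 1080-fold and 2167-fold for Acta1. The 207-fold span was that of Eno3 in iBAT, where its median was 26.9 RPKM. Eno3 correlated with Acta1 there at r = 0.968, so it did not keep its median level in iBAT libraries with little muscle RNA. Des and Tpm2 are known in smooth muscle as well. The summed smooth muscle markers were never below 59.7 RPKM, and their part in these levels was not tested.

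The fibre type genes of the 2 depots had different levels. In iBAT the slow members were near 0 in some libraries that held muscle RNA. Library 18, with 18.2 RPKM of Acta1 and 13.5 RPKM of Ckm, held 0.03 RPKM of Myh7 and 0.00 RPKM of Myl2 and Tnni1. Over the 48 iBAT libraries Myh7 had lowest, median and highest values of 0.00, 1.92 and 69.8 RPKM, Myl2 (the slow regulatory light chain) 0.00, 5.61 and 164 RPKM, and Tnni1 (the slow troponin inhibitor) 0.00, 2.17 and 77.4 RPKM. In iWAT the same 3 values were 0.00, 0.02 and 0.87 RPKM for Myh7, 0.00, 0.07 and 3.66 RPKM for Myl2, and 0.00, 0.17 and 1.82 RPKM for Tnni1. Library 67 of iWAT held 2885 RPKM of Acta1, more than any iBAT library, and 0.02 RPKM of Myh7 and 0.00 RPKM of Myl2. Myh7 was at 0 in 18 of 48 iWAT libraries, where 3 reads would be 0.048 to 0.088 RPKM.

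Among libraries with at least 10 RPKM of the 4 heavy chains together, Myh4 took a median of 80.9% of their sum in 42 iBAT libraries (64.6% to 97.3%) and 98.7% in 29 iWAT libraries (52.9% to 99.9%). Myh1 took 11.2% in iBAT and 0.96% in iWAT. Myh2, of the most oxidative fast fibres, took 3.64% and 0.12%, and Myh7 3.02% and 0.04%. The 4 genes are close copies of each other, so reads could be split between them by the counting. Within iBAT the Myh4 share had medians from 74.4% (wild-type, high fat, 6 libraries) to 85.3% (Ucp1-KO, 30 °C, 7 libraries), with ranges that overlapped. Some iWAT libraries carried Myh1: library 80 held 24.5 RPKM of Myh1 beside 28.0 RPKM of Myh4, and library 95 held 6.51 beside 7.72 RPKM. In the other direction, library 71 held 0.58 RPKM of Myh1 beside 389 RPKM of Myh4.

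Mb, myoglobin, which stores oxygen in oxidative fibres, also had a higher median in iBAT than in iWAT. It had lowest, median and highest values of 0.32, 41.1 and 517 RPKM in iBAT and 0.08, 0.85 and 24.0 RPKM in iWAT. Mb per Acta1 had a median of 0.212 in iBAT (0.0915 to 0.671) and 0.0142 in iWAT (0.0007 to 0.241). The highest iWAT values of Mb per Acta1 overlapped the iBAT range. Among iBAT libraries with little Acta1 the ratio varied, with 0.593 in library 8, 0.271 in library 18 and 0.159 in library 31. In library 2, rich in Acta1, it was 0.175. Which cells the Mb came from was not tested. Library 80, with the lowest Myh4 share of iWAT, held 16.2 RPKM of Mb, and library 71 held 1.69 RPKM with 1586 RPKM of Acta1.

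**Figure D3:**
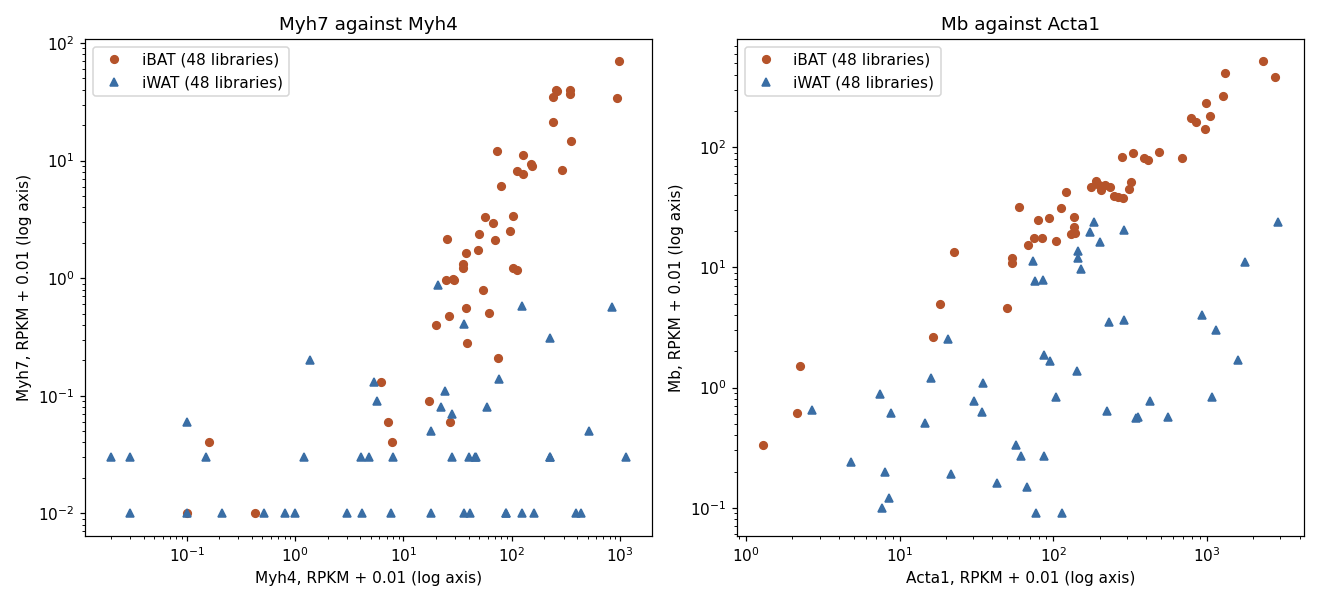
Left, Myh7 against Myh4, and right, Mb against Acta1 (RPKM + 0.01, log axes), in 48 iBAT libraries (circles) and 48 iWAT libraries (triangles). At a like level of Myh4 or Acta1 most iWAT libraries lie below the iBAT libraries, with Myh7 at most 0.87 RPKM in iWAT.

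In the comparison of the tissues, 33 of 36 members were higher in iBAT and 0 were lower, at an adjusted p below 0.05 by limma over all 16310 genes tested, where 24.8% of all genes were called higher. The median log2 difference of the members was 1.39, against -0.27 for all genes, which was -0.05 with median-ratio scaling. The 14 fast members had a median of 1.38, and all 14 were higher. The 7 slow members had a median of 1.99, and all 7 were higher. Myh2, Myh7, Myl2, Tnni1 and Sln did not pass the filter in iWAT alone. They entered this comparison through iBAT, where they are higher, so the filter favoured their calls. With no filter on low values 33 of 36 members were called higher. Mb was higher by 3.61 ± 0.34 (log2, SE, adjusted p = 3.8e-17 by limma), Myl2 by 2.78 ± 0.33 (adjusted p = 6.3e-13) and Myh7 by 1.99 ± 0.26 (adjusted p = 7.6e-11). Acta1 had 0.78 ± 0.44 (adjusted p = 0.0899), and was not called. The members correlate across libraries, so their calls are not separate observations. The comparison averages 6 settings, and the direction was not the same in each: on control diet at 30 °C the median member sum of wild-type mice was 716 RPKM in iBAT and 1666 RPKM in iWAT, and that of Ucp1-KO mice 1785 and 1419 RPKM. In the other 4 settings the iBAT median was higher too, from 848 against 223 RPKM (wild-type, high fat) to 1866 against 157 RPKM (Ucp1-KO, high fat). By the study design 48 animals gave 96 samples, so both tissues came from each animal. The fit treated the libraries as independent, since no label pairs them, and its p-values do not account for shared animals. Of all calls 27.7% were higher as deposited, 46.0% under median-ratio scaling and 54.9% under quantile normalization, and 33, 36 and 34 members were.

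Of 43 other skeletal muscle genes not among the members, led by Pygm (muscle glycogen phosphorylase), Pgam2 and Mybph, 41 were tested. Of these, 38 were higher in iBAT and 1 was lower, with a median log2 difference of 0.90, where 24.8% of all genes were called higher. Their summed level ran from 47.3 to 2733 RPKM in iBAT and from 47.0 to 1852 RPKM in iWAT. The genes of satellite cells and myoblasts, the precursors of muscle fibres, summed to at most 3.51 RPKM in iBAT and 1.30 RPKM in iWAT.

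The genes outside the members that followed Acta1 most closely were mostly of muscle, with 3 that are not known for it. In iBAT, A930016O22Rik (r = 0.996), Ube2c (r = 0.989) and Rabep2 (r = 0.984) came before Myot, Pygm, Ckmt2, Cox6a2, Eef1a2, Pgam2 and Ldb3 (r = 0.956 to 0.969), over 48 libraries. In iWAT the 10 were Ldb3 (r = 0.949), Tpm1, Cmya5, Ube2c, Trdn, Pygm, Pgam2, Jsrp1, Myom2 and Mylk4 (r = 0.908). These r are descriptions, over the same libraries for every gene. In the RefSeq annotation of GRCm38.p6, A930016O22Rik overlaps Ckm, Rabep2 overlaps Atp2a1, and Ube2c and Tnnc2 are next to each other with no gene between.

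The transcripts of these neighbours did not move as one. Ube2c, an enzyme of mitotic protein breakdown often read as a sign of dividing cells, had 4 transcripts. The first of them by level correlated with Tnnc2 at r = 0.991 in iBAT and 0.989 in iWAT, with medians of 25.7 and 11.3 RPKM. The other 3 had r of 0.067 to 0.108 in iBAT and -0.124 to -0.096 in iWAT, and were at most 8.58 RPKM. Rabep2, a factor of endosome fusion, had 13 transcripts, of which 2 correlated with Atp2a1 at r = 0.983 in iBAT and 0.953 in iWAT, and 11 at -0.005 to 0.344. All 4 transcripts of A930016O22Rik correlated with Ckm at 0.977 or more. The transcript of highest mean was the muscle-like one for both Ube2c and Rabep2. Whether reads of the neighbouring muscle gene were counted there was not tested.

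Within iBAT, no member was called for temperature, for diet or for genotype on control diet. Limma called 0 of 36 for 20 °C minus 30 °C in wild-type (44.6% of all genes called) and Ucp1-KO mice (73.4%), and 0 for Ucp1-KO minus wild-type at 20 °C (37.8%) and at 30 °C (64.7%). It called 0 for high fat minus control diet in wild-type (33%) and Ucp1-KO mice (16.4%), and 0 for the differences between genotypes in the effect of temperature (52.4%) and of diet (6.55%). The count at an unadjusted p under 0.05 was also 0 in each of these 8. The members' spread within groups was wide: the SE of the Acta1 difference was 1.07 on the log2 scale. In Ucp1-KO minus wild-type at 30 °C, 1 member was called without library 19 or without library 31.

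On high fat diet, 22 of 36 members were higher in Ucp1-KO than in wild-type iBAT and 0 were lower, where 52.8% of all genes were called higher. The members' share of 61.1% was near that background, so the count is not a result about muscle genes. Fbxo32 was 2.89 to 4.72 RPKM in wild-type libraries (median 3.44) and 2.93 to 56.2 RPKM in Ucp1-KO libraries (median 8.25), a log2 difference of 1.41 ± 0.45 (SE, adjusted p = 0.0060 by limma). Ckm was 0.16 to 118 RPKM (median 64.9) and 0.70 to 1616 RPKM (median 162), a difference of 2.50 ± 1.06 (adjusted p = 0.0365). The groups overlapped for both genes, and the lowest libraries were 34 and 38 among the wild-type and 46 among the Ucp1-KO animals. All 14 fast members were called and 0 of 7 slow ones, whose median difference was 1.20 against 2.19 for the fast. The difference between the 2 kinds was not tested.

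Single libraries set this count. It was 1 without library 47, 3 without library 34, and 4 without library 38, 43 or 48. It was 4 with median-ratio scaling, 8 with quantile normalization and 11 with no filter. The median of all genes was 0.25 as deposited and 0.01 with median-ratio scaling, where 51.1% of all calls were higher against 82.7%, and 41.1% under quantile normalization. The members' median was 1.88, and 1.62 with median-ratio scaling. In the same comparison 26 of 41 other skeletal muscle genes and 6 of 7 smooth muscle genes were higher, where 52.8% of all genes were called higher. The share of the other skeletal muscle genes was near that background, so their count is not a result about muscle genes either. Acta2 rose by 0.79 ± 0.14 (log2, adjusted p = 6.4e-06 by limma).

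In iWAT the members were lower on high fat diet than on control diet at 30 °C in both genotypes. In wild-type mice 23 of the 31 tested members fell and 0 rose, where 3.84% of all genes were called lower, with a median log2 difference of -2.44 against 0.00 for all genes. In Ucp1-KO mice 22 of 31 fell and 0 rose, where 8.31% of all genes were called lower, with a median of -2.20 against 0.09. Myh2, Myh7, Myl2, Tnni1 and Sln did not pass the filter of 0.5 RPKM in 8 libraries. The fast group held 12 of 13 tested members called in each genotype, with medians of -3.56 and -3.47.

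Ckm was 0.13 to 2038 RPKM (median 197) in wild-type libraries on control diet and 0.06 to 54.0 RPKM (median 11.0) on high fat, a log2 difference of -4.02 ± 1.34 (SE, adjusted p = 0.0369 by limma). In Ucp1-KO libraries it was 1.71 to 1403 RPKM (median 134) and 0.06 to 97.9 RPKM (median 3.06), a difference of -4.33 ± 1.34 (adjusted p = 0.0152). The groups overlapped, through library 65 at 0.13 RPKM and library 75 at 1.71 RPKM on control diet. Myh4 was 0.02 to 1131 RPKM (median 106) and 0.09 to 27.8 RPKM (median 6.00) in wild-type mice, a difference of -3.81 ± 1.26 (adjusted p = 0.0350). In Ucp1-KO mice it was 0.79 to 835 RPKM (median 65.1) and 0.01 to 59.2 RPKM (median 1.18), a difference of -3.89 ± 1.26 (adjusted p = 0.0204). Library 67 held the highest value of both genes in wild-type mice and library 73 in Ucp1-KO mice.

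The ubiquitin ligases, Eno3 and Des were among the members called lower in wild-type mice. Trim63, a ubiquitin ligase that marks sarcomere proteins for breakdown, was 0.00 to 91.4 RPKM (median 8.55) on control diet and 0.00 to 4.07 RPKM (median 0.45) on high fat in wild-type mice, a difference of -2.68 ± 0.76 (adjusted p = 0.0133 by limma). Fbxo32 was 5.95 to 44.6 RPKM (median 9.68) and 4.47 to 6.32 RPKM (median 5.18), a difference of -1.17 ± 0.32 (adjusted p = 0.0090). Eno3 was 11.4 to 351 RPKM (median 41.4) and 6.94 to 20.0 RPKM (median 10.0), a difference of -2.21 ± 0.60 (adjusted p = 0.0097). Des was 15.8 to 195 RPKM (median 37.2) and 11.6 to 27.8 RPKM (median 17.8), a difference of -1.33 ± 0.39 (adjusted p = 0.0152). The groups overlapped for all 4 genes, most narrowly for Fbxo32.

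Beside these counts, 34 of 40 other skeletal muscle genes were lower in wild-type and 29 of 40 in Ucp1-KO mice, with medians of -1.66 and -1.39. Of all genes 3.84% and 8.31% were called lower. Pygm fell by 2.98 ± 0.93 (log2) and 2.81 ± 0.93, with adjusted p of 0.0253 and 0.0236 by limma. Of 7 smooth muscle genes tested, 2 were higher and 0 lower in each genotype. Over all 15897 genes, 2150 were called in wild-type mice, 71.6% of them higher, and 3873 in Ucp1-KO mice, 65.9% of them higher. The count of members in wild-type mice was 9 without library 67, 11 without library 69 or 71, and 14 without library 81 or 86. In Ucp1-KO mice it was 10 without library 73. In Ucp1-KO mice 65.9% of all calls were higher as deposited, 43.9% with median-ratio scaling and 44.2% under quantile normalization, and 23 members were lower under each of these scalings. Both comparisons use libraries of their own genotype only. No member was called by limma for a difference between genotypes in the effect of diet (0 called, 1.33% of all genes), with 1 member at an unadjusted p under 0.05. The spread within groups was wide, so a missing call does not show that the effects were equal. Ucp1-KO minus wild-type on high fat called 0 members (0.283% of all genes), with 0 at an unadjusted p under 0.05.

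Across all 48 iWAT libraries Ckm correlated with Acta1 at r = 0.883 and rho = 0.898 (permutation p = 1e-05, adjusted 1.5e-05; r = 0.871 without the 2 farthest libraries), but some high fat libraries held Acta1 with almost no Ckm. Ckm per Acta1 had medians of 0.689 and 0.614 in wild-type and Ucp1-KO iWAT on control diet at 30 °C, and of 0.174 and 0.0578 on high fat. Library 81 held 113 RPKM of Acta1 with 0.06 RPKM of Ckm and 0.09 RPKM of Myh4. Library 86 held 57.2 RPKM of Acta1 with 0.43 RPKM of Ckm, and library 93 held 43.2 with 0.26 RPKM. On control diet, library 65 held 7.97 RPKM of Acta1 with 0.13 RPKM of Ckm, and Ckm per Acta1 was 0.177 in library 52 and 0.197 in library 75. The high fat group also held libraries at the usual ratio, such as library 85 at 0.579 and library 91 at 0.571. The log2 difference of Acta1 between diets was -1.93 ± 1.05 in wild-type (adjusted p = 0.247 by limma) and -2.20 ± 1.05 in Ucp1-KO mice (adjusted p = 0.121), and that it differed from Ckm was not tested.

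Acta2, the smooth muscle actin, is a near-identical copy of Acta1, and which reads the authors' counting gave to each is uncertain. Acta2 was 52.6 to 231 RPKM (median 140) in wild-type and 46.8 to 212 RPKM (median 80.6) in Ucp1-KO iWAT on high fat, and 30.4 to 89.3 RPKM (median 79.4) and 28.7 to 103 RPKM (median 54.9) on control diet at 30 °C. It rose with high fat by 0.83 ± 0.27 (log2, adjusted p = 0.0325 by limma) in wild-type and 0.72 ± 0.27 (adjusted p = 0.0488) in Ucp1-KO mice. Acta1 per Acta2 was 0.491 in library 81, 0.356 in library 86 and 0.342 in library 93. Over all high fat iWAT libraries it ran from 0.1215 (library 89) to 3.90 (library 94). In the muscle-poor iBAT libraries 34, 38 and 46 it was 0.0317, 0.0173 and 0.0177. The part of Acta2 in the Acta1 level was not tested.

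**Figure D4:**
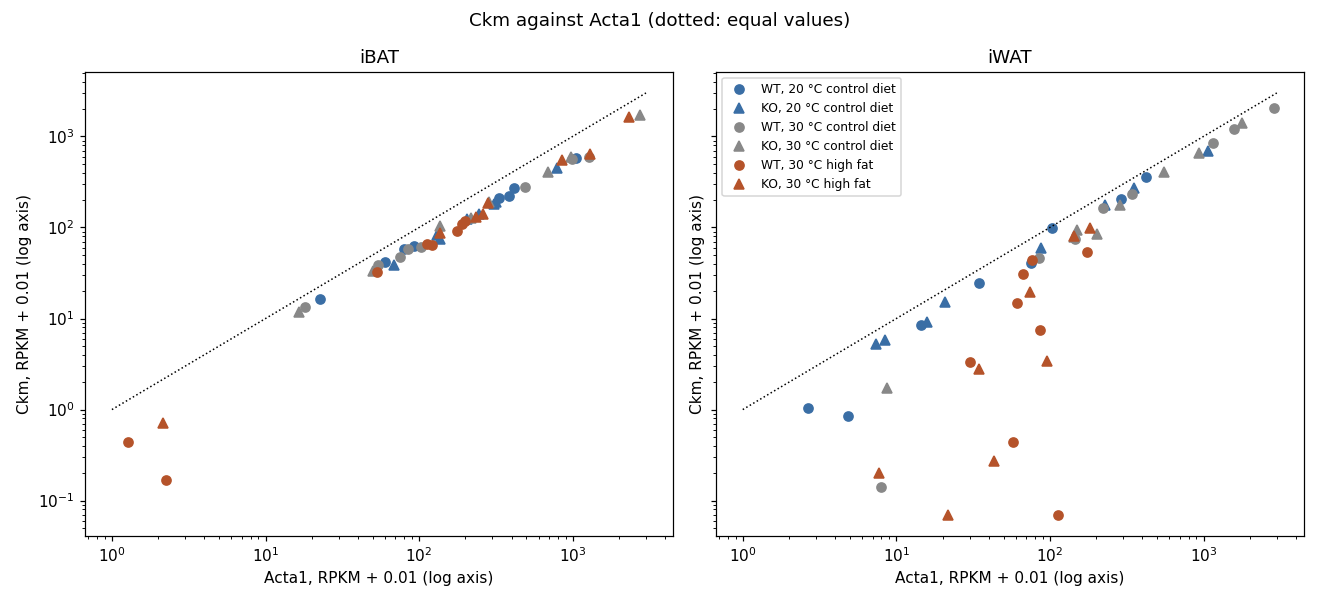
Ckm against Acta1 (RPKM + 0.01, log axes) in 48 iBAT libraries (left) and 48 iWAT libraries (right), circles wild-type and triangles Ucp1-KO, coloured by condition, with equal values on the dotted line. The iBAT libraries other than 34, 38 and 46 form a line at a Ckm per Acta1 of about 0.593. Many iWAT libraries on high fat fall below it, as far as 0.06 RPKM of Ckm beside 113 RPKM of Acta1. Others on high fat, such as 85 and 91, lie near it, and some on control diet, such as 65, fall below it.

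Between temperatures, fewer iWAT members were called. The control diet libraries at 30 °C of each genotype stand in both the diet and the temperature comparison. These comparisons are therefore not separate observations. The median member sums of those libraries were 1666 RPKM (wild-type) and 1419 RPKM (Ucp1-KO). At 20 °C the medians were 410 and 380 RPKM, and on high fat 223 and 157 RPKM. For 20 °C minus 30 °C in wild-type mice 5 of 31 were lower and 0 higher, where 12.4% of all genes were called lower, and the members' share of 16.1% was near that background. The members' median log2 difference was -1.79 against -0.10 for all genes, with 2 of 31 above 0 and 18 of 31 at an unadjusted p under 0.05. How many of all genes passed that unadjusted threshold was not counted, so the 18 have no background beside them. The 5 members called lower were Trim63, Tpm2, Ryr1 (the calcium release channel), Des and Fbxo32, from -1.08 ± 0.32 for Fbxo32 (adjusted p = 0.0139 by limma) to -2.20 ± 0.76 for Trim63 (adjusted p = 0.0363). Acta1 had the largest difference of the members, -2.74 ± 1.05, and was not called (adjusted p = 0.0569). Single libraries moved the count: it was 22 without library 65, 9 without library 55, 8 without library 49, 3 without library 54, 2 without library 51 or 70, and 1 without library 52, 53, 56, 67, 69 or 71. It was 1 with median-ratio scaling, 2 with no filter and 9 with the mean over transcripts. Of all calls 37.0% were higher as deposited, 70.8% with median-ratio scaling and 64.7% under quantile normalization.

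In Ucp1-KO mice 5 members were lower and 1 higher at 20 °C, where 51.4% of all genes were called lower and 9.02% higher. The 16.1% of members called lower was below that background, while their median log2 difference was -1.41 against -0.25 for all genes, with 1 of 31 above 0 and 9 at an unadjusted p under 0.05. No share of all genes at that unadjusted threshold was counted to set beside the 9. Myh1 was 0.00 to 1.11 RPKM (median 0.78) at 20 °C and 0.08 to 24.5 RPKM (median 5.86) at 30 °C, a log2 difference of -1.78 ± 0.58 (adjusted p = 0.0079 by limma). Mb was 0.11 to 3.52 RPKM (median 0.84) and 0.56 to 20.5 RPKM (median 10.4), a difference of -1.86 ± 0.66 (adjusted p = 0.0146). Tpm2, Actn2 (an actin anchor of the Z disc) and Mybpc1 (a slow myosin-binding protein) were the others. The groups overlapped for both genes, through libraries 75 and 79 at 30 °C, which held 0.08 and 0.46 RPKM of Myh1 and 0.61 and 0.56 RPKM of Mb. The count of called members was 14 without library 60 and 16 without library 75. Of all calls 14.9% were higher as deposited, 63.4% with median-ratio scaling and 53.6% under quantile normalization, and the median of all genes was -0.25 as deposited and -0.02 with median-ratio scaling. No member was called for a difference between genotypes in the effect of temperature (0 called by limma, 13.3% of all genes, 0 at an unadjusted p under 0.05). Of all calls there 16.2% were higher as deposited and 84.1% with median-ratio scaling. A missing call does not show that the effects were equal.

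Myl3 did not correlate with Acta1 across the iWAT libraries. It encodes the alkali light chain of slow skeletal and ventricular myosin. In Ucp1-KO iWAT at 20 °C its lowest, median and highest values were 0.87, 1.38 and 2.19 RPKM, and in wild-type iWAT at 20 °C 0.12, 0.30 and 1.26 RPKM. On control diet at 30 °C they were 0.12, 0.55 and 1.14 RPKM in Ucp1-KO and 0.00, 0.00 and 0.79 RPKM in wild-type libraries. On high fat all 8 Ucp1-KO libraries were listed at 0, and the wild-type ones at 0.00, 0.00 and 1.46 RPKM. The Ucp1-KO libraries at 20 °C overlapped the wild-type ones at 20 °C, whose highest value was above the lowest of the former. The Ucp1-KO libraries on control diet at 30 °C were all above those on high fat.

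Myl3 was higher in Ucp1-KO than in wild-type iWAT at 20 °C by 0.78 ± 0.15 on the log2(RPKM + 1) scale (SE, adjusted p = 3.2e-05 by limma), the only member called of 31, where 9.85% of all genes were called higher. In Ucp1-KO mice it was higher at 20 °C than at 30 °C by 0.65 ± 0.15 (adjusted p = 3.7e-04) and lower on high fat than on control diet (-0.615 ± 0.153, adjusted p = 0.0024). These comparisons share libraries with each other. At 30 °C the difference between genotypes was 0.43 ± 0.15 (adjusted p = 0.0396), the only member called, where 7.54% of all genes were called higher. Of all calls there 31.7% were higher as deposited, 68.3% with median-ratio scaling and 65.2% under quantile normalization. The last call was lost without library 65, 68, 69, 70, 71, 72, 73, 76, 77, 79 or 80 (adjusted p up to 0.0793), and with no filter (adjusted p = 0.0590, with 0.0109 as the lowest over 6 alternatives). The other 3 were kept in every fit that left out 1 library, with adjusted p up to 0.0080.

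These levels were low, so the size on the log scale depends on the pseudocount: with 0.1 in place of 1 the difference at 20 °C was 1.74. All 5 transcripts of Myl3 had their highest iWAT median in Ucp1-KO mice at 20 °C, at 0.43 to 1.38 RPKM. Transcripts of the same gene can share reads, and some of these had the same lowest, median and highest values in every iWAT group. Their agreement is therefore not separate support. The 3 reads of a floor were 0.300 to 0.548 RPKM. Of the other slow members, Tnnc1, Tnnt1 and Mybpc1 were tested and not called in Ucp1-KO minus wild-type iWAT at 20 °C, with log2 differences of 0.07 ± 0.17, -0.02 ± 0.20 and -0.28 ± 0.42 (SE, adjusted p = 0.738, 0.938 and 0.556 by limma). That these differ from Myl3 was not tested. Myl2, Myh7 and Tnni1 did not pass the filter, and their medians in Ucp1-KO iWAT at 20 °C, 0.00, 0.01 and 0.11 RPKM, were below the level of 3 reads, so they were not tested. Ucp1 also differed between these groups, with 1.48 ± 0.54 (log2, adjusted p = 0.0165 by limma) in Ucp1-KO minus wild-type iWAT at 20 °C. There 8 of 8 brown adipocyte genes, Ucp1 among them, were higher, where 9.85% of all genes were called higher. All 8 were also higher at 20 °C than at 30 °C, and lower on high fat than on control diet, in Ucp1-KO iWAT. Their part in the Myl3 level was not tested. With median-ratio scaling 54.5% of all calls were higher in Ucp1-KO minus wild-type iWAT at 20 °C, and 50.8% under quantile normalization, against 15.2%, and the Myl3 difference was 1.01.

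**Figure D5:**
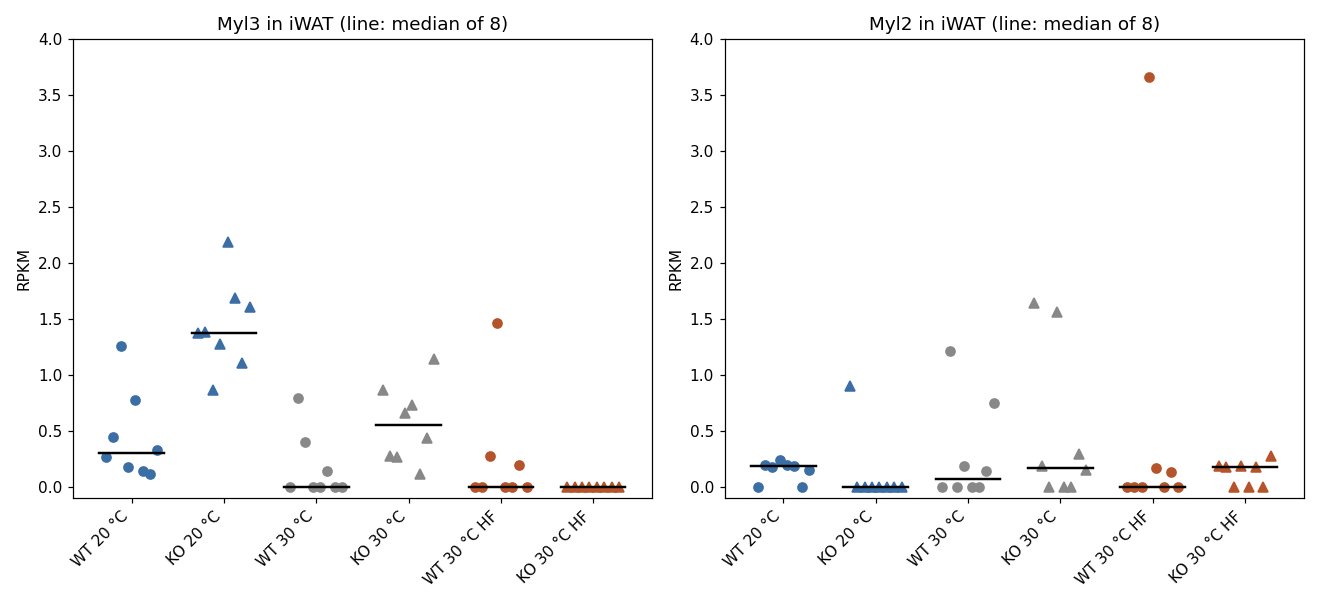
Myl3 (left) and Myl2 (right) in RPKM in the 8 libraries of each iWAT group, circles wild-type and triangles Ucp1-KO, with the median as a bar. Myl3 has its highest median, 1.38 RPKM, in Ucp1-KO libraries at 20 °C and is 0.00 in all 8 Ucp1-KO libraries on high fat, while Myl2 stays at or below 0.90 RPKM in the former.

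Sln, sarcolipin, a small protein that lowers the efficiency of the calcium pump in muscle, was scarce. It had a median of 0.26 RPKM in iBAT, was below 1 RPKM in 33 of 48 libraries and at 0 in 14, and reached 14.7 RPKM in library 19. In iWAT it was at 0 in 36 of 48 libraries and at most 1.54 RPKM. In iBAT it was 0.58 ± 0.14 higher than in iWAT (log2, adjusted p = 6.6e-05 by limma). Sln did not pass the filter in iWAT alone, and entered that comparison through iBAT. Between genotypes on high fat in iBAT, Sln was 0.00 to 0.22 RPKM in wild-type and 0.00 to 3.67 RPKM in Ucp1-KO libraries, with a difference of 0.77 ± 0.43 (adjusted p = 0.117). At 3 reads the level is 0.303 to 0.655 RPKM, depending on the library, so values below it rest on fewer than 3 reads. The smallest difference between groups that could be called was not computed.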

How the data were processed

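RNA from 96 mouse fat samples was sequenced from stranded mRNA libraries, per the labels' protocols. The authors deposited 1 table of RPKM values for 168326 transcripts, with a column for each library, all used. CASAVA and bcl2fastq are named in the submitters' processing notes, and for the aligner, counter and build the sources used here give no name. Transcripts without an Entrez gene identifier (13.8%) were left out, and a symbol's transcript of highest mean stood for the gene. Reads per library were recovered from the spacing of low RPKM values (95.1 to 95.7% of values of up to 20 reads were whole within 0.05 of a read). The highest correlation between libraries of a tissue was 0.995 in iBAT and 0.996 in iWAT, and none held identical values.

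Genes of at least 0.5 RPKM in at least 8 libraries were tested on log2(RPKM + 1), 14807 in iBAT, 15897 in iWAT and 16310 in both, with limma 3.58.1 (limma-trend) in R 4.3.3, with group means as the model. P-values were Benjamini-Hochberg adjusted over all genes of a comparison, with a threshold of 0.05. A log2 difference on this scale understates the change of low genes. The files hold RPKM, so the test for normalized values was used. The script was tested on simulated data. Correlations used Python 3.11.15 with NumPy 2.4.6 and 100000 permutations. Members, gene lists and the rule for named genes (all 36 members, Ucp1, the 3 highest genes of a list and the 10 genes most like Acta1 in each tissue) were chosen with earlier results of these data known. Alternatives were the pseudocount, the filter, 2 scalings, a robust spread, the mean over transcripts and leaving out each library, the last chosen after seeing the data. Replicates are separate animals by the study design, and intervals cover the spread between them.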

Additional observations from a re-analysis of the deposited data

Results flagged for a closer look

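A library standing far from the other 7 of its group, by Dixon's test at the 95% level (a gap that is a large part of the group's range), was found for 40 of 432 sets of 8 values, where chance marks about 1 in 20. Members of 1 library are not independent, so these marks gather in few libraries. No explanation was tested.

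In iBAT, library 16 (Ucp1-KO, 20 °C) stood high, with Actn2 at 56.04, Tnnc1 at 65.33, Ttn at 138.26, Des at 113.95 and Fbxo32 at 19.87 RPKM. Library 46 (Ucp1-KO, high fat) stood low, with Acta1 at 2.14, Ckm at 0.70, Tnnc2 at 0.48, Tnni2 at 0.37, Tnnt3 at 1.0 and Atp2a1 at 1.29 RPKM.

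In iWAT, library 75 (Ucp1-KO, control diet, 30 °C) stood low, with Ckm at 1.71, Tnnc2 at 1.34, Tnni2 at 1.13, Tnnt3 at 2.02, Atp2a1 at 0.51 and Tcap at 0.36 RPKM. Library 84 (wild-type, high fat) stood high in slow and oxidative members. Its Mb was 19.72, Mybpc1 4.80, Myl2 3.66, Tnnc1 2.56, Tnni1 1.82, Myl3 1.46 and Myh7 0.87 RPKM. It also stood high in the fast members Myl1 at 34.36 and Myh1 at 4.45 RPKM, and in Xirp2 at 1.53 RPKM. Library 57 (Ucp1-KO, 20 °C) stood high in Myl2 at 0.90, Myh7 at 0.57, Tnni1 at 0.57 and Myh2 at 0.48 RPKM. Library 66 (wild-type, control diet, 30 °C) stood high in Tnnt1 at 1.69 and Myh7 at 0.40 RPKM, and library 96 (Ucp1-KO, high fat) in Myh7 at 0.19 RPKM. Myh2 stood high in library 74 at 1.89, library 94 at 1.47 and library 67 at 1.17 RPKM. Sln stood high in library 94 at 1.0, library 64 at 0.30 and library 88 at 0.13 RPKM, among values at or near 0.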

How the results depend on the processing

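The count of members called higher in Ucp1-KO than wild-type iBAT on high fat was 22, and it was 8 with quantile normalization, 4 with median-ratio scaling and 11 with no filter. The count for 20 °C minus 30 °C in wild-type iWAT was 5, and it was 2 with no filter, 1 with median-ratio scaling and 9 with the mean over transcripts. Ucp1-KO minus wild-type iWAT at 30 °C went from 1 to 0 with no filter, and the difference between genotypes in the effect of diet in iWAT from 0 to 1 with a pseudocount of 0.1. The cause of these shifts was not tested.

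Leaving out 1 library at a time, chosen after seeing the data, gave 1 to 27 members for Ucp1-KO minus wild-type iBAT on high fat and 0 to 1 on control diet at 30 °C. In iWAT it gave 9 to 23 for high fat in wild-type mice, 10 to 27 for high fat in Ucp1-KO mice, 1 to 22 for temperature in wild-type mice, 6 to 16 for temperature in Ucp1-KO mice, and 0 to 1 for genotype at 30 °C. Of 480 values of single genes under 6 alternatives, 406 kept direction and call, 74 kept direction but lost the call, and 0 reversed. No paired analysis was possible because the labels number the libraries 1 to 96 with no number shared between groups. Depth limits genes below about 0.5 RPKM, where few reads stand behind a value, and intervals from reads cover counting error only.

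With median-ratio scaling the share of all calls that were higher went from 26.1% to 50% for temperature in wild-type iBAT, from 18.9% to 46.7% in Ucp1-KO iBAT, from 65.4% to 51.5% for genotype in iBAT at 20 °C, from 83.7% to 52% at 30 °C, from 22.7% to 46.8% for genotype by temperature in iBAT, and from 68.9% to 84.1% for genotype in iWAT on high fat. Members called were 0 under both scalings in each of these.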
